A study of Mus musculus with 10 samples.

Results

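CD8+ T cells that had spent 1 d on keratinocytes were compared with CD8+ T cells labelled as activated for 1 d. The comparison took 4 of the 10 RNA-seq libraries of the study, which form 5 groups of 2, with the libraries assigned to groups by the sample labels. Splenic CD8+ T cells of C57/B6 mice were selected with CD8 microbeads, held in X-VIVO 15 medium and pre-activated for 1 d by plate-bound αCD3/CD28 Abs. For the activated group (2 libraries) the labels name no further culture, whereas the co-cultured group (2 libraries) was moved for another 1 d onto keratinocytes. A figure legend of the study places its pre-activated T cells for 1 d in X-VIVO medium. Whether that means a further day after activation is not settled. The co-culture medium consisted mainly of low-Ca++ keratinocyte medium, and the T cells were then washed off. For the keratinocytes, the study's text names tails of adult mice or newborn mice as source, without saying which were sequenced. T cells kept for 1 d in keratinocyte medium with no keratinocytes (2 libraries) went through the same activation and entered the fit. The labels name keratinocyte medium for them, whereas the study's text describes a mix of keratinocyte and X-VIVO medium, so whether both 1 d groups had the same medium is not settled by the labels. The 2 keratinocyte groups served only as a reference for keratinocyte transcripts. The labels number the activated libraries, and the other T-cell libraries were numbered in the order of deposit. The labels put the co-culture at 1 d, but the design text at 1 h; the labels were followed. By the labels, time since activation, the medium and the presence of keratinocytes changed together between the co-cultured and the activated group. They cannot be told apart in this comparison. The design text speaks of a pair of parallel experiments, but no label ties the libraries to separate mice, so p-values measure only the spread between these libraries.

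Antibodies to CD3 and CD28 replace antigen and costimulation. In CD8+ T cells they open a Ca++ route to calcineurin and NFAT factors, together with NF-κB and AP-1, and within hours these factors drive cytokine and chemokine genes. A slower programme led by Myc and Irf4 enlarges the cell: glycolysis, amino acid uptake, sterol synthesis and ribosome production go up before the first divisions. When the stimulus ends, short-lived messages decay, while genes of resting and memory T cells return.

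The 4 libraries held 12864931 to 15926898 exon reads. RPKM is the number of exon reads per kilobase of gene, scaled to the number of mapped reads, and it allows levels of different genes to be compared. Both CD8 chains were read in all 4 libraries: Cd8a stood at 176 and 110 RPKM in the activated libraries and 312 and 209 RPKM in the co-cultured libraries (log2 fold change 1.05, adjusted p = 0.0902), and Cd8b1 at 277 and 141 RPKM in the activated libraries and 681 and 327 RPKM in the co-cultured libraries (log2 fold change 1.45, adjusted p = 0.0877). Replicates differed by more than sampling noise, as 13.8% of the genes at 5 RPKM or above on average in the activated group and 10% in the co-cultured group were over 2-fold apart. Summed levels of some markers of other cells differed between the groups. The summed RPKM of 18 markers of differentiated keratinocytes was 1.88 and 1.15 in the activated and 886 and 1042 in the co-cultured libraries, that of 8 B cell markers 32.6 and 36.5 against 17.3 and 27.7, and that of 11 dendritic cell markers 240.7 and 445 against 134.6 and 142. CD4 T cell markers overlapped (19.2 and 115.5 against 71.0 and 69.7 RPKM), and the keratinocyte markers are described at the end. In a bulk library, fewer cells of a type and less RNA per cell cannot be told apart.

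Co-culture was followed by a broad change of the T-cell transcriptome. By edgeR's quasi-likelihood test, 544 of 11863 genes tested rose (4.59%) and 678 fell (5.72%) at a Benjamini-Hochberg adjusted p under 0.05. The median log2 fold change of all genes was -0.01. With library sizes in place of TMM scaling it was -0.17, and 396 genes rose and 762 fell, so that 34.2% instead of 44.5% of the calls were rises. Left out, activated library 1 brought the calls down to 134 rises and 132 falls, and co-cultured library 2 to 265 and 233. Keratinocyte transcripts were present after co-culture, so the genes were split by the higher of their mean levels in the 2 keratinocyte groups relative to the T cells in keratinocyte medium. The co-cultured keratinocyte libraries also held transcripts of 16 T-cell receptor complex genes (summed 179.7 and 984.6 RPKM, against 3417 and 2547 RPKM in co-cultured T cells). Their summed CD8 chains stood at 1.32 and 3.16 RPKM. A level called that of keratinocytes may thus in part come from T cells, which was not tested. Of the 5044 tested genes with a lower level in keratinocytes 354 rose (7.02%) and 142 fell; these rises were 77 without activated library 1 and 181 without co-cultured library 2. The medium libraries that set this split also differ from the activated ones, so the shares by class are no independent evidence of a direction. Of the 5874 genes at 1 to 10 times the T-cell level in keratinocytes, 100 rose and 499 fell, and of the 945 genes at 10 times or more, 90 rose and 37 fell. Among the calls, 59 genes that rose had no read in either activated library, and 11 that fell had none in either co-cultured library. The gene groups below were described by the number of members called and by their median, read against these shares and against the median of all genes. Subtraction by the differentiated markers, named below, took 53.9% and 48.1% of the mean level in co-cultured keratinocytes off co-cultured libraries 1 and 2. Basal markers gave a share of 0.606% and 0.122% and general ones 1.11% and 0.330%. A call lost under that setting may thus reflect the size of the subtraction.

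**Figure D1:**
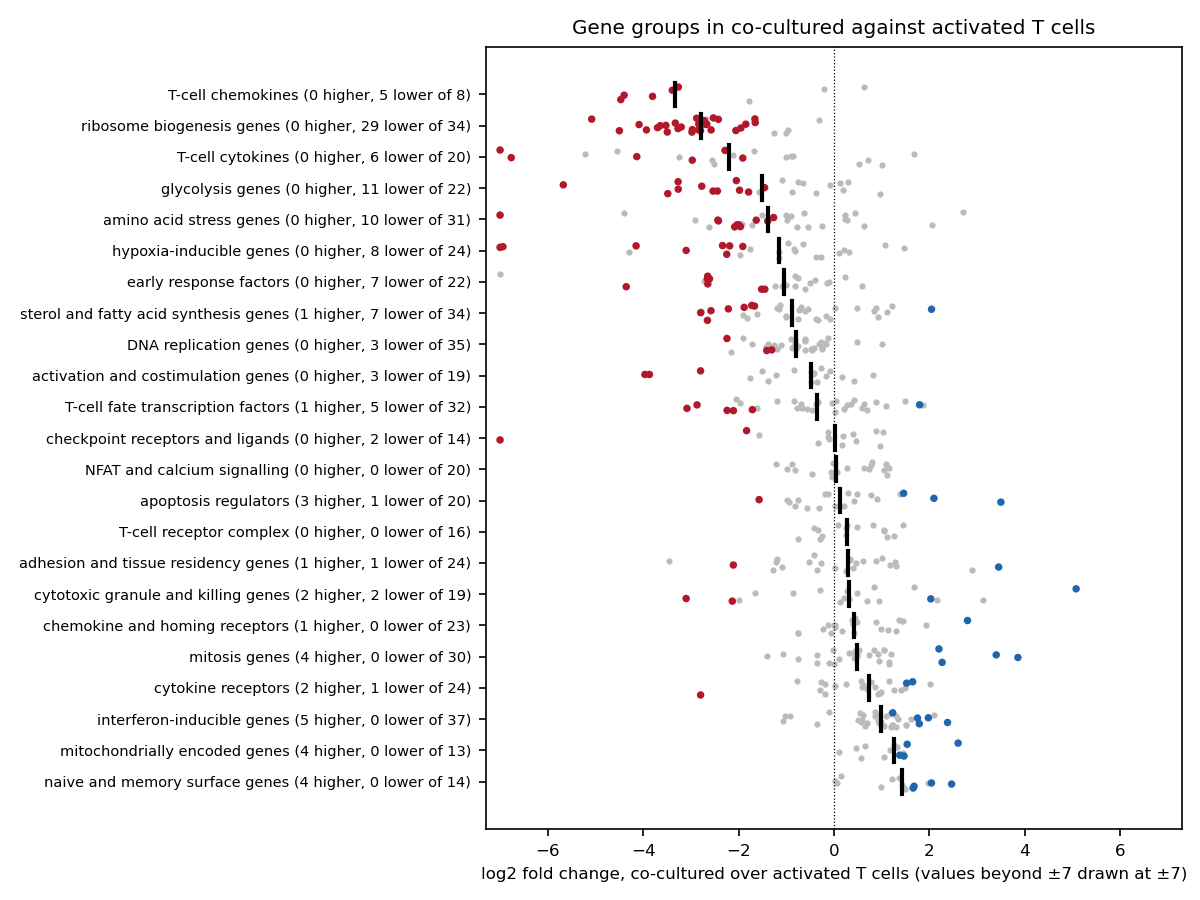
Log2 fold change of the tested members of 23 gene groups (rows), co-cultured over activated T cells (x axis, log2 scale). Blue dots are members called higher, red dots members called lower and grey dots members that did not pass, and black bars are group medians, with values beyond ±7 drawn at ±7; ribosome biogenesis genes lie wholly below 0 (29 of 34 called lower), whereas 4 of 14 naive and memory surface genes were called higher.

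Ifng and Il3 were among the 10 largest falls over all genes. Of 20 tested T-cell cytokine genes, 6 fell and 14 did not pass (median log2 fold change -2.20). Ifng, which encodes the main antiviral and macrophage-activating cytokine of CD8+ T cells, stood at 613 and 589 RPKM in the activated libraries and 3.26 and 6.20 RPKM in the co-cultured libraries. Its mean RPKM was 127-fold lower, and edgeR's estimate after TMM scaling was a log2 fold change of -6.77 ± 0.50 (SE) (adjusted p = 0.00162). Lta, for lymphotoxin alpha, stood at 96.5 and 44.2 RPKM in the activated libraries and 8.17 and 7.36 RPKM in the co-cultured libraries (log2 fold change -2.97 ± 0.45 (SE), adjusted p = 0.00941), and Lif, for leukaemia inhibitory factor, at 14.4 and 9.08 RPKM in the activated libraries and 0.583 and 0.576 RPKM in the co-cultured libraries (log2 fold change -4.13 ± 0.46 (SE), adjusted p = 0.00525). For each of these genes both co-cultured libraries lay below both activated ones. Il3, a growth factor for myeloid cells, was read only in the activated libraries (13.9 and 21.5 RPKM) and was at least 49.8-fold lower when 3 reads per library are taken as the floor (adjusted p = 0.0127). Osm, for oncostatin M, (7.07 and 10.8 RPKM against 2.05 and 1.21 RPKM upon co-culture, log2 fold change -2.28, adjusted p = 0.0289) and Mif, for macrophage migration inhibitory factor, (1936 and 1577 RPKM against 349 and 457 RPKM upon co-culture, log2 fold change -1.91, adjusted p = 0.014) fell as well. Il10, for an anti-inflammatory cytokine, lay the other way (2.00 and 1.17 RPKM against 4.56 and 4.32 RPKM upon co-culture) and did not pass (adjusted p = 0.11). Of the cytokine genes, the number that fell was 3 without activated library 1. Calls were lost without activated library 1 for Lta, Osm and Mif (adjusted p of 0.0501 to 0.0663), without activated library 2 for Il3 and Osm (adjusted p of 0.0511 and 0.0844), without co-cultured library 1 for Mif (adjusted p of 0.0532), without co-cultured library 2 for Osm (adjusted p of 0.133) and after subtraction by the differentiated markers for Osm and Mif (adjusted p of 0.0563 and 0.294). Leaving out 1 library moved the fold change by over 1.5 times for Ifng (log2 -7.43 without co-cultured library 2) and Lta (log2 -2.35 without activated library 1).

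The promoters of the strongest falls that were still read in co-culture, Ifng and Lif, are given because GGAAA is the core that NFAT factors recognise. Each run is the 250 bases before the RefSeq start on GRCm38.p6, and capitals mark GGAAA or its complement TTTCC. The window of Ifng is chr10:118440796-118441045 (plus strand) and that of Lif chr11:4257318-4257567 (plus strand), and each holds 1 match.
Ifng: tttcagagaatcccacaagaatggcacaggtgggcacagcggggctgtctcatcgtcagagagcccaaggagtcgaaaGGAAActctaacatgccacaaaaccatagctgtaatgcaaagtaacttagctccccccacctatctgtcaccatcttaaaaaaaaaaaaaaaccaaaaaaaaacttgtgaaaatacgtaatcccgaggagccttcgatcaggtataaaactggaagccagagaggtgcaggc
Lif: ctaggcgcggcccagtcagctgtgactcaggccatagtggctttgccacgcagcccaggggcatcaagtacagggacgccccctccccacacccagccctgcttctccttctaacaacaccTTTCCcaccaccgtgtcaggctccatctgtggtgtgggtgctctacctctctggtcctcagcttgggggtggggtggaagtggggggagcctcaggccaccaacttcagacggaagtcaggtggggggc
GGAAA on either strand was found in 16 of the 18 cytokine promoters at hand and in 5 of the 5 of called genes, but also in 54.4% of the 9235 promoters of all tested genes. A match of these 5 letters is a description and not a binding site.

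Chemokine genes fell along with the cytokines, 5 of 8 tested (median -3.33): Ccl3, Ccl4, Ccl9, Ccl22 and Xcl1. Xcl1, for the ligand of a receptor on cross-presenting dendritic cells, stood at 335 and 216 RPKM in the activated libraries and 15.7 and 29.1 RPKM in the co-cultured libraries (log2 fold change -3.39 ± 0.47 (SE), adjusted p = 0.00766). Ccl22, for a ligand of CCR4, stood at 20.9 and 21.0 RPKM in the activated libraries and 2.07 and 1.75 RPKM in the co-cultured libraries (log2 fold change -3.26 ± 0.50 (SE), adjusted p = 0.00941), and Ccl9, for a ligand of CCR1, at 14.5 and 2.89 RPKM in the activated libraries and 0.109 and 0.541 RPKM in the co-cultured libraries (log2 fold change -4.47 ± 1.03 (SE), adjusted p = 0.0329). Both groups were apart for all 3 genes, but the activated libraries differed strongly from each other for Ccl9. Ccl3 and Ccl4, for inflammatory chemokines, lay at -4.40 (adjusted p = 0.00162) and -3.80 (adjusted p = 0.0107) on the log2 scale. The threshold was missed without activated library 1 for Ccl9 (adjusted p of 0.235), after subtraction by the differentiated markers for Ccl9 (adjusted p of 0.11) and on uniquely mapped reads for Ccl9 (adjusted p of 0.0631). A single library moved the fold change by over 1.5 times for Ccl9 (log2 -2.93 without activated library 1, log2 -5.18 without activated library 2, log2 -3.68 without co-cultured library 1 and log2 -6.16 without co-cultured library 2), Xcl1 (log2 -4.03 without co-cultured library 2) and Ccl4 (log2 -3.20 without activated library 2).

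Factors that follow receptor triggering were lower upon co-culture, whereas the receptor and the NFAT pathway itself did not pass. Of 22 tested early response genes, 7 fell and 15 did not pass (median -1.05). Nr4a3, one of 3 orphan nuclear receptors that report T-cell receptor signals, stood at 38.5 and 23.5 RPKM in the activated libraries and 1.45 and 1.18 RPKM in the co-cultured libraries (log2 fold change -4.35 ± 0.54 (SE), adjusted p = 0.00638). Its relatives Nr4a1 (20.8 and 26.7 RPKM against 2.97 and 3.81 RPKM upon co-culture, log2 fold change -2.61, adjusted p = 0.0102) and Nr4a2 (5.42 and 6.58 RPKM against 1.26 and 0.453 RPKM upon co-culture, log2 fold change -2.65, adjusted p = 0.0264) and the zinc-finger factors Egr2 (8.46 and 6.54 RPKM against 1.16 and 0.936 RPKM upon co-culture, log2 fold change -2.64, adjusted p = 0.0134) and Egr3 (10.5 and 6.83 RPKM against 1.06 and 1.33 RPKM upon co-culture, log2 fold change -2.65, adjusted p = 0.0138) fell too. All 5 genes were lower in both co-cultured libraries than in either activated one. The early response genes called lower were 2 without activated library 1, 4 without activated library 2 and 3 without co-cultured library 2. Significance was lost without activated library 1 for Nr4a2, Egr2 and Egr3 (adjusted p of 0.0656 to 0.0785), without activated library 2 for Nr4a2 (adjusted p of 0.0666), without co-cultured library 2 for Nr4a2 and Egr2 (adjusted p of 0.104 and 0.0569) and after subtraction by the differentiated markers for Nr4a2 (adjusted p of 0.0904). The fold change moved by over 1.5 times with 1 library left out for Nr4a2 (log2 -3.44 without co-cultured library 1).

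None of the 16 tested genes of the T-cell receptor complex and none of the 20 of NFAT and calcium signalling was called by edgeR, with medians of 0.27 and 0.04. At an unadjusted p under 0.05, 6 receptor genes were higher and 1 lower, and 4 NFAT pathway genes were higher and 1 lower, and DESeq2 called 4 and 3 of them higher and none lower. Nfatc1, for the NFAT factor whose level rises on activation, stood at 17.3 and 17.2 RPKM in the activated libraries and 15.4 and 7.05 RPKM in the co-cultured libraries (log2 fold change -0.47, adjusted p = 0.491). Nfatc3, a family member of resting T cells, stood at 16.5 and 15.0 RPKM in the activated libraries and 33.7 and 26.1 RPKM in the co-cultured libraries (log2 fold change 1.11, adjusted p = 0.0672), and Ppp3cc, for a catalytic subunit of calcineurin, at 24.0 and 25.5 RPKM in the activated libraries and 44.3 and 51.9 RPKM in the co-cultured libraries (log2 fold change 1.16, adjusted p = 0.0607). The co-cultured values of Nfatc1 lay below the activated ones and those of Nfatc3 and Ppp3cc above them, with no overlap, but no difference passed edgeR. DESeq2 called Nfatc3 and Ppp3cc higher (adjusted p = 0.00786 and 0.0123), the test without a filter on low counts did so too (adjusted p = 0.0336 and 0.0324), and limma called Ppp3cc (adjusted p = 0.0452 and 0.0483 at pseudocounts of 1 and 0.1 RPKM).

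Among 32 tested transcription factors of T-cell fate, 5 fell, 1 rose and 26 did not pass (median -0.36), whereas 5.72% of all tested genes fell and 4.59% rose. The falls included the factors of early growth and effector differentiation. Irf4, which scales with receptor strength, stood at 77.2 and 36.4 RPKM in the activated libraries and 5.84 and 5.74 RPKM in the co-cultured libraries (log2 fold change -3.08 ± 0.40 (SE), adjusted p = 0.00693), and Myc, the master regulator of growth metabolism, at 145 and 69.1 RPKM in the activated libraries and 17.9 and 7.91 RPKM in the co-cultured libraries (log2 fold change -2.87 ± 0.52 (SE), adjusted p = 0.0156). Bhlhe40, which supports cytokine production (49.2 and 61.1 RPKM against 10.6 and 9.95 RPKM upon co-culture, log2 fold change -2.24, adjusted p = 0.0078), and Irf8 (168 and 94.5 RPKM against 34.7 and 34.6 RPKM upon co-culture, log2 fold change -1.71, adjusted p = 0.0199), an interferon regulatory factor of effector CD8+ T cells, fell as well, although only 19.4% of the Irf8 reads were uniquely mapped. Klf3, a repressor of the Krüppel-like family, was the factor that rose (2.70 and 6.13 RPKM against 12.5 and 14.5 RPKM upon co-culture, log2 fold change 1.80, adjusted p = 0.0455). Tcf7, for the TCF1 factor of naive and stem-like memory cells, stood at 93.1 and 109 RPKM in the activated libraries and 477 and 193 RPKM in the co-cultured libraries. The libraries did not overlap, but the co-cultured ones differed over 2-fold from each other, and the gene narrowly missed the threshold (log2 fold change 1.88, adjusted p = 0.051); it passed by DESeq2 (adjusted p = 0.00134) and without co-cultured library 2 (adjusted p = 0.0268). The fate factors called lower were 2 without activated library 1, 3 without co-cultured library 1 and 3 without co-cultured library 2. The adjusted p passed 0.05 without activated library 1 for Irf8, Myc and Klf3 (adjusted p of 0.076 to 0.174), without co-cultured library 1 for Irf8 (adjusted p of 0.069), without co-cultured library 2 for Irf8 and Klf3 (adjusted p of 0.0785 and 0.138), without medium library 1 for Klf3 (adjusted p of 0.0526), without medium library 2 for Klf3 (adjusted p of 0.0613), in a fit of these 4 libraries alone for Klf3 (adjusted p of 0.0664), after subtraction by the differentiated markers for Irf8 (adjusted p of 0.121), with library sizes in place of TMM for Klf3 (adjusted p of 0.0624) and on uniquely mapped reads for Irf8 (adjusted p of 0.0639). When 1 library was omitted, the fold change moved by over 1.5 times for Irf4 (log2 -2.49 without activated library 1) and Klf3 (log2 2.58 without activated library 2).

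Among genes of cytotoxic granules and killing, 2 of 19 were lower, 2 were higher and 15 did not pass (median 0.32). Of all tested genes 5.72% fell and 4.59% rose, so these few calls are no result about the group. Gzmb, for granzyme B, stood at 2966 and 1968 RPKM in the activated libraries and 391 and 574 RPKM in the co-cultured libraries (log2 fold change -2.13 ± 0.39 (SE), adjusted p = 0.016), and Prf1, for the pore former perforin, at 48.8 and 31.2 RPKM in the activated libraries and 5.59 and 2.68 RPKM in the co-cultured libraries (log2 fold change -3.10 ± 0.43 (SE), adjusted p = 0.0078). T cells in keratinocyte medium held 134 and 174 RPKM of Gzmb. Co-culture against medium did not pass (log2 fold change 1.71, adjusted p = 0.31), though both co-cultured libraries lay above both medium libraries. Klrd1, for the CD94 subunit of the NKG2 receptors found on NK cells and activated CD8+ T cells, rose from 11.4 and 13.6 to 178 and 539 RPKM (log2 fold change 5.08 ± 0.73 (SE), adjusted p = 0.00822), with 94.7 and 212 RPKM in keratinocyte medium. NK cell markers were close to 0, at a summed 0.989 and 3.17 RPKM in the activated and 1.57 and 3.05 RPKM in the co-cultured libraries. Ctsw, for the granule protease cathepsin W, rose as well (23.8 and 27.0 RPKM against 121 and 64.6 RPKM upon co-culture, log2 fold change 2.03, adjusted p = 0.014). The granule genes called higher numbered 0 without activated library 1 and 4 without a filter on low counts. The call was lost without activated library 1 for Gzmb, Klrd1 and Ctsw (adjusted p of 0.0621 to 0.0885) and after subtraction by the differentiated markers for Gzmb (adjusted p of 0.0813). Leaving out 1 library moved the fold change by over 1.5 times for Klrd1 (log2 5.71 without co-cultured library 1 and log2 3.92 without co-cultured library 2).

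A few surface molecules of the activated state fell, while most checkpoint receptors did not pass. Of 19 activation and costimulation genes 3 fell and 16 did not pass (median -0.48), and of 14 checkpoint genes 2 fell and 12 did not pass (median 0.03). Of all tested genes 5.72% fell, so these few calls are no result about either group. Tnfrsf9, for the costimulator 4-1BB, stood at 161 and 156 RPKM in the activated libraries and 7.78 and 11.0 RPKM in the co-cultured libraries (log2 fold change -3.87 ± 0.37 (SE), adjusted p = 0.00322), with 24.4% of its reads uniquely mapped. Tfrc, for the transferrin receptor that brings iron into dividing cells, stood at 90.6 and 33.6 RPKM in the activated libraries and 4.40 and 2.56 RPKM in the co-cultured libraries (log2 fold change -3.96 ± 0.51 (SE), adjusted p = 0.00693), and Il2ra, for the high-affinity IL-2 receptor chain CD25, at 105 and 67 RPKM in the activated libraries and 11.4 and 10.1 RPKM in the co-cultured libraries (log2 fold change -2.80 ± 0.33 (SE), adjusted p = 0.0054). All 3 genes were lower in both co-cultured libraries. By contrast, Pdcd1, for the inhibitory receptor PD-1, was read at 27.9 and 51.5 RPKM in the activated libraries and 36.6 and 58.9 RPKM in the co-cultured libraries (log2 fold change 0.47, adjusted p = 0.541), and Lag3, for a receptor of MHC class II, at 124 and 130.1 RPKM in the activated libraries and 95.4 and 107 RPKM in the co-cultured libraries (log2 fold change -0.12, adjusted p = 0.826). The Pdcd1 values overlapped between the groups, whereas those of Lag3 were lower upon co-culture by less than the test could call. Lilrb4, an inhibitory receptor gene, was at least 44.8-fold lower with no read upon co-culture (adjusted p = 0.0176), but 1.01% of its reads were uniquely mapped and it could not be fitted on those. The calls were lost without activated library 2 for Lilrb4 (adjusted p of 0.107). A single library moved the fold change by over 1.5 times for Tfrc (log2 -3.14 without activated library 1).

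Surface genes of naive and memory T cells lay higher upon co-culture. Of 14 tested, 4 rose, 10 did not pass, and all 14 fitted fold changes were above 0 (median 1.44). Cd27, for a costimulator of the TNF receptor family, stood at 38.7 and 41.1 RPKM in the activated libraries and 123 and 99.6 RPKM in the co-cultured libraries (log2 fold change 1.66 ± 0.30 (SE), adjusted p = 0.016). Ly6c2, a memory-associated surface gene, rose from 66.8 and 22.6 to 201 and 222 RPKM (log2 fold change 2.47 ± 0.51 (SE), adjusted p = 0.0235). The groups did not overlap for either gene. All 4 called members belonged to the class with a lower level in keratinocytes. That class held 354 of all 544 rises and was set by the medium libraries. Of the Cd27 reads, 19.9% were uniquely mapped. Of 24 cytokine receptors 2 rose and 1, the Il2ra gene above, fell, whereas 4.59% of all tested genes rose and 5.72% fell. Among 23 chemokine and homing receptors and 24 adhesion and tissue residency genes 1 each rose, near the share of all genes. These counts are no result about the receptor and adhesion groups. Ifnar2, for a chain of the type I interferon receptor, rose from 10.6 and 9.72 to 32.0 and 24.1 RPKM (log2 fold change 1.65, adjusted p = 0.0193). P2ry10, for a lysophospholipid receptor of lymphocytes, was the member of 23 chemokine and homing receptors that rose (26.1 and 54.4 RPKM against 165 and 318 RPKM upon co-culture, log2 fold change 2.79, adjusted p = 0.0182), and Itgae, for the CD103 integrin that binds E-cadherin on epithelial cells, the member of 24 adhesion and tissue residency genes (1.57 and 6.00 RPKM against 61.7 and 15.3 RPKM upon co-culture, log2 fold change 3.46, adjusted p = 0.0329); 1 member of the latter fell. In keratinocyte medium without keratinocytes Itgae was read at 85.2 and 51.4 RPKM (log2 fold change -0.82, adjusted p = 1 for co-culture over medium), and its co-cultured libraries were over 2-fold apart. The naive and memory genes called higher were 2 without co-cultured library 2, 7 by DESeq2 and 9 without a filter on low counts. Calls were lost without activated library 1 for Cd27, Ifnar2, P2ry10 and Itgae (adjusted p of 0.0955 to 0.128), without activated library 2 for Ly6c2 and Ifnar2 (adjusted p of 0.051 and 0.0611), without co-cultured library 1 for Ifnar2 (adjusted p of 0.0542), without co-cultured library 2 for Cd27 and Ifnar2 (adjusted p of 0.0527 and 0.0534) and with library sizes in place of TMM for Itgae (adjusted p of 0.0507). The fold change moved by over 1.5 times with 1 library left out for Ly6c2 (log2 3.39 without activated library 1), P2ry10 (log2 3.49 without activated library 2 and log2 2.11 without co-cultured library 2) and Itgae (log2 2.78 without activated library 1, log2 4.79 without activated library 2, log2 2.28 without co-cultured library 1 and log2 4.10 without co-cultured library 2).

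**Figure D2:**
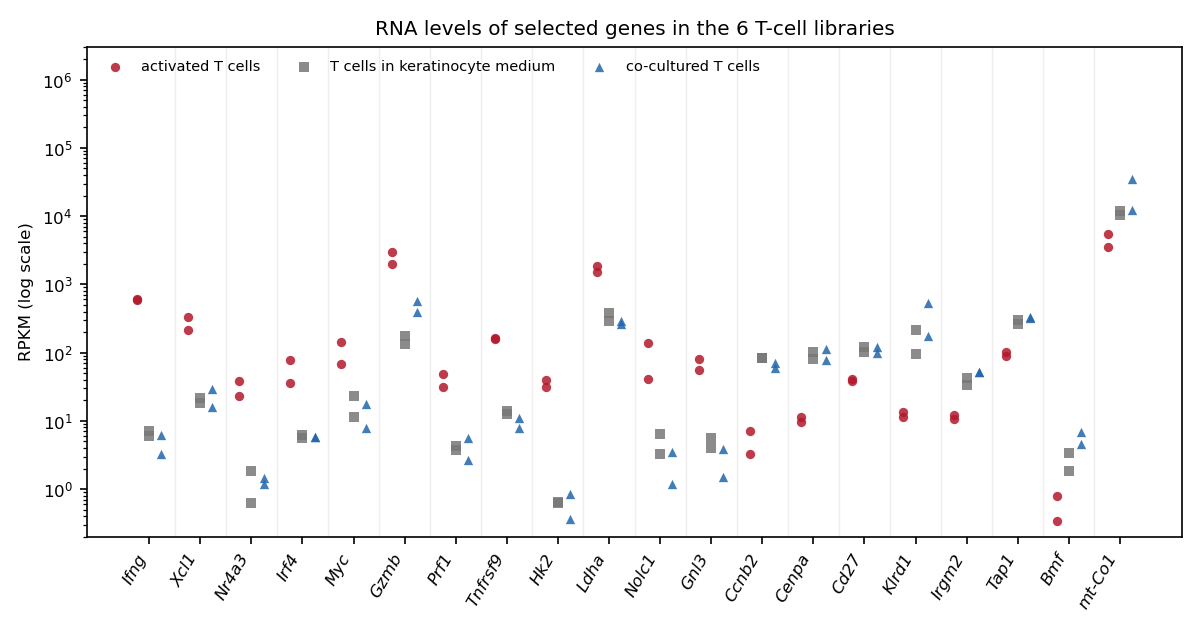
Levels of 20 genes in RPKM (y axis, log scale) in the 6 T-cell libraries, 1 symbol per library: activated T cells (red circles), T cells in keratinocyte medium (grey squares) and co-cultured T cells (blue triangles). Ifng lies at 589 and 613 RPKM in the activated and 3.26 and 6.20 RPKM in the co-cultured libraries, with 5.95 and 7.20 RPKM in the medium libraries.

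Transcripts of growth metabolism were lower upon co-culture in part of several gene groups. Of 22 tested glycolysis genes 11 fell and 11 did not pass (median -1.51). Hk2, for the inducible hexokinase that traps glucose in the cell, stood at 39.0 and 30.9 RPKM in the activated libraries and 0.847 and 0.367 RPKM in the co-cultured libraries (log2 fold change -5.67 ± 0.46 (SE), adjusted p = 0.00217). Tpi1, for triosephosphate isomerase, stood at 794 and 767 RPKM in the activated libraries and 78.9 and 45.2 RPKM in the co-cultured libraries (log2 fold change -3.48 ± 0.34 (SE), adjusted p = 0.00386), and Ldha, for the lactate dehydrogenase chain of fermenting cells, at 1533 and 1874 RPKM in the activated libraries and 289.9 and 261 RPKM in the co-cultured libraries (log2 fold change -2.44 ± 0.34 (SE), adjusted p = 0.00755). Each gene was lower in both co-cultured libraries. The same held for the glucose importer Slc2a1 (70.4 and 67.2 RPKM against 8.18 and 9.33 RPKM upon co-culture, log2 fold change -2.77, adjusted p = 0.00525), the lactate exporter Slc16a3 (44.7 and 53.8 RPKM against 4.13 and 4.81 RPKM upon co-culture, log2 fold change -3.26, adjusted p = 0.00525) and the enzyme genes Pgam1 (619 and 445 RPKM against 86.9 and 73.4 RPKM upon co-culture, log2 fold change -2.53, adjusted p = 0.00597) and Pfkl (86.2 and 58.4 RPKM against 8.27 and 4.97 RPKM upon co-culture, log2 fold change -3.27, adjusted p = 0.00525). Gapdh, with 2.64% of its reads uniquely mapped, was lower in both co-cultured libraries (1630.1 and 1282 RPKM against 786 and 596 RPKM upon co-culture) and did not pass edgeR (log2 fold change -0.89, adjusted p = 0.0959), though it passed DESeq2 (adjusted p = 0.0238). All 7 falls named here were called with every library left out in turn. The number of glycolysis calls was 7 without co-cultured library 2. When 1 library was omitted, the fold change moved by over 1.5 times for Hk2 (log2 -6.27 without co-cultured library 1).

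The promoter of Hk2, the strongest fall of this group, is given because ACGTG and GCGTG are the core letters that hypoxia-inducible factors recognise. Capitals mark both words or their complements CACGT and CACGC in the 250 bases before the RefSeq start on GRCm38.p6. The window of Hk2 is chr6:82774455-82774704 (minus strand) with 2 matches of ACGTG.
Hk2: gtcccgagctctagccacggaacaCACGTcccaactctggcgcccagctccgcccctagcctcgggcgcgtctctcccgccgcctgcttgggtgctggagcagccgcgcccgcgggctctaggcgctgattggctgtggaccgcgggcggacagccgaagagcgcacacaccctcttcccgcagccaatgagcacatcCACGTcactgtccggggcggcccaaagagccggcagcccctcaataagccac
The window of Tpi1, the next of the falls described, held none of these words. At least 1 of the words was present in 17 of 21 glycolysis promoters, in 9 of the 11 of called genes and in 57.3% of the promoters of all tested genes.

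Hypoxia-inducible genes shared this direction, with 8 of 24 lower and 16 not passing (median -1.16). Ak4, for a mitochondrial adenylate kinase, stood at 14.6 and 15.2 RPKM in the activated libraries and 0.0299 and 0.177 RPKM in the co-cultured libraries (log2 fold change -6.94 ± 0.81 (SE), adjusted p = 0.00693), and Egln3, for a prolyl hydroxylase that senses oxygen, at 48.1 and 95.9 RPKM in the activated libraries and 1.55 and 5.39 RPKM in the co-cultured libraries (log2 fold change -4.15 ± 0.71 (SE), adjusted p = 0.0136). Bnip3, for an outer mitochondrial membrane protein of mitophagy, stood at 55.9 and 159.9 RPKM in the activated libraries and 7.33 and 14.6 RPKM in the co-cultured libraries (log2 fold change -3.10 ± 0.65 (SE), adjusted p = 0.0239). In each case both co-cultured libraries were below both activated ones, as they were for the oxidoreductase gene Ero1l (41.3 and 49.7 RPKM against 8.50 and 8.30 RPKM upon co-culture, log2 fold change -2.25, adjusted p = 0.00766) and for Jmjd6 (50.3 and 31.4 RPKM against 7.68 and 6.42 RPKM upon co-culture, log2 fold change -2.34, adjusted p = 0.0118), a hydroxylase gene. At least 1 of the words above occurred in 17 of the 20 hypoxia-inducible promoters and in 6 of the 7 of called genes. The number of hypoxia-inducible genes called was 4 without activated library 1, 13 by DESeq2 and 13 without a filter on low counts. Significance was lost without activated library 1 for Jmjd6 (adjusted p of 0.0665), without activated library 2 for Bnip3 (adjusted p of 0.0773) and without co-cultured library 2 for Jmjd6 (adjusted p of 0.0511). Leaving out 1 library moved the fold change by over 1.5 times for Ak4 (log2 -6.09 without co-cultured library 1), Egln3 (log2 -3.49 without activated library 2, log2 -3.47 without co-cultured library 1 and log2 -5.45 without co-cultured library 2) and Bnip3 (log2 -2.07 without activated library 2 and log2 -3.81 without co-cultured library 2).

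Part of the transcripts of amino acid and sterol supply were lower too. Of 31 amino acid stress genes 10 fell and 21 did not pass (median -1.39), and of 34 sterol and fatty acid synthesis genes 7 fell, 1 rose and 26 did not pass (median -0.87). Shmt2, for the mitochondrial enzyme that feeds serine into one-carbon metabolism, stood at 259 and 114 RPKM in the activated libraries and 32.1 and 27.6 RPKM in the co-cultured libraries (log2 fold change -2.43 ± 0.40 (SE), adjusted p = 0.0125), and Slc7a5, for the importer of large neutral amino acids, at 113 and 43.7 RPKM in the activated libraries and 9.17 and 15.6 RPKM in the co-cultured libraries (log2 fold change -2.42 ± 0.52 (SE), adjusted p = 0.0268; 12.5% of its reads uniquely mapped). The tRNA synthetase genes Aars (54.6 and 24.7 RPKM against 11.0 and 6.00 RPKM upon co-culture, log2 fold change -2.03, adjusted p = 0.0345) and Nars (165 and 113 RPKM against 30.3 and 30.0 RPKM upon co-culture, log2 fold change -2.00, adjusted p = 0.00981) fell too. Atf4, for the factor that controls these genes under stress, lay just beyond the threshold (132 and 89.7 RPKM against 18.3 and 39.3 RPKM upon co-culture, log2 fold change -1.71, adjusted p = 0.0502); it passed by DESeq2 (adjusted p = 0.00698) and without co-cultured library 2 (adjusted p = 0.0255). Of the sterol genes, Idi1 stood at 164 and 229 RPKM in the activated libraries and 31.6 and 26.5 RPKM in the co-cultured libraries (log2 fold change -2.58 ± 0.34 (SE), adjusted p = 0.00754), and Lss (23.2 and 15.0 RPKM against 3.56 and 1.81 RPKM upon co-culture, log2 fold change -2.65, adjusted p = 0.0129), Cyp51 (86.0 and 72.7 RPKM against 19.2 and 11.1 RPKM upon co-culture, log2 fold change -2.21, adjusted p = 0.00906) and the fatty acid desaturase gene Scd1 (10.9 and 9.55 RPKM against 0.923 and 1.61 RPKM upon co-culture, log2 fold change -2.79, adjusted p = 0.0129) fell with it. Acss2, for the enzyme that makes acetyl-CoA from acetate, rose (2.74 and 3.53 RPKM against 12.9 and 10.1 RPKM upon co-culture, log2 fold change 2.05, adjusted p = 0.0149). For all called genes of this paragraph the groups did not overlap. The amino acid stress genes called lower numbered 0 without activated library 1, 4 without co-cultured library 1 and 5 without co-cultured library 2. The adjusted p passed 0.05 without activated library 1 for Shmt2, Slc7a5, Nars and Aars (adjusted p of 0.0527 to 0.183), without co-cultured library 1 for Slc7a5 (adjusted p of 0.0591), without co-cultured library 2 for Aars (adjusted p of 0.137) and on uniquely mapped reads for Slc7a5 (adjusted p of 0.109). A single library moved the fold change by over 1.5 times for Shmt2 (log2 -1.78 without activated library 1), Slc7a5 (log2 -1.63 without activated library 1) and Aars (log2 -1.41 without activated library 1). The sterol genes called lower numbered 2 without activated library 1, 3 without co-cultured library 2, 12 by DESeq2 and 13 without a filter on low counts. For the sterol genes, calls were lost without activated library 1 for Lss, Scd1 and Acss2 (adjusted p of 0.0589 to 0.0893) and without co-cultured library 2 for Lss (adjusted p of 0.0505).

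Ribosome biogenesis was the gene group with the largest share of calls. Of 34 tested ribosome biogenesis genes 29 fell and 5 did not pass, whereas 5.72% of all tested genes fell. Fitted log2 fold changes of the 34 ran from -5.08 to -0.31 (median -2.79). Nolc1, for a nucleolar chaperone of small nucleolar RNPs, stood at 140.3 and 41.2 RPKM in the activated libraries and 3.53 and 1.20 RPKM in the co-cultured libraries (log2 fold change -5.08 ± 0.74 (SE), adjusted p = 0.00851). Gnl3, for nucleostemin, stood at 81.2 and 54.9 RPKM in the activated libraries and 3.86 and 1.49 RPKM in the co-cultured libraries (log2 fold change -4.50 ± 0.50 (SE), adjusted p = 0.00525), and Nop58, for a core protein of methylating small nucleolar RNPs, at 50.9 and 40.3 RPKM in the activated libraries and 4.02 and 2.21 RPKM in the co-cultured libraries (log2 fold change -3.70 ± 0.36 (SE), adjusted p = 0.00356). Mybbp1a, a nucleolar gene, (205 and 48.3 RPKM against 9.55 and 3.55 RPKM upon co-culture, log2 fold change -4.09, adjusted p = 0.02) and Dkc1, for the pseudouridine synthase dyskerin, (96.9 and 61.0 RPKM against 7.23 and 2.06 RPKM upon co-culture, log2 fold change -3.93, adjusted p = 0.00851) fell likewise. The activated libraries differed 2-fold or more for Nolc1 and Mybbp1a, with library 1 the higher. Npm1, for the abundant nucleolar protein nucleophosmin, was read at 2212 and 1760.3 RPKM in the activated libraries and 1414 and 1367 RPKM in the co-cultured libraries and did not pass (log2 fold change -0.31, adjusted p = 0.524). The number of called members was 14 without activated library 1 and 18 without co-cultured library 2. The E-box CACGTG, the word bound by Myc, occurred in 1 of the 29 promoters of the group at hand and in 8.47% of all tested ones. The call was lost without activated library 1 for Mybbp1a (adjusted p of 0.0841) and after subtraction by the differentiated markers for Dkc1 and Nop58 (adjusted p of 0.162 and 0.107). When 1 library was omitted, the fold change moved by over 1.5 times for Nolc1 (log2 -4.01 without activated library 1, log2 -5.69 without activated library 2 and log2 -5.92 without co-cultured library 1), Gnl3 (log2 -5.21 without co-cultured library 1), Mybbp1a (log2 -2.77 without activated library 1, log2 -4.77 without activated library 2 and log2 -4.83 without co-cultured library 1) and Dkc1 (log2 -4.96 without co-cultured library 1 and log2 -3.34 without co-cultured library 2).

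Cell cycle genes passed the test in small numbers. Of 35 DNA replication genes 3 fell and 32 did not pass (median -0.80), and of 30 mitosis genes 4 rose and 26 did not pass (median 0.48). Of all tested genes 5.72% fell and 4.59% rose, so the count of replication genes is near the share of all genes. The mitosis median moved with single libraries, to 1.42 without activated library 1, 0.02 without activated library 2, -0.26 without co-cultured library 1 and 0.98 without co-cultured library 2. Ccne2, for a cyclin of S phase entry, stood at 16.4 and 16.6 RPKM in the activated libraries and 4.35 and 1.90 RPKM in the co-cultured libraries (log2 fold change -2.24 ± 0.45 (SE), adjusted p = 0.0209), with 29.5% of its reads uniquely mapped, and the replication clamp gene Pcna at 629.9 and 489 RPKM in the activated libraries and 300.4 and 227 RPKM in the co-cultured libraries (log2 fold change -0.90, adjusted p = 0.104). Ccnb2, for a cyclin of mitotic entry, stood at 7.07 and 3.31 RPKM in the activated libraries and 70.8 and 60.1 RPKM in the co-cultured libraries (log2 fold change 3.86 ± 0.41 (SE), adjusted p = 0.00525), and Cenpa, for the histone variant of centromeres, at 11.4 and 9.70 RPKM in the activated libraries and 79.0 and 114 RPKM in the co-cultured libraries (log2 fold change 3.40 ± 0.39 (SE), adjusted p = 0.00525). Ube2c, for an enzyme that marks mitotic cyclins for decay, rose as well (20.0 and 6.73 RPKM against 53.8 and 56.7 RPKM upon co-culture, log2 fold change 2.27, adjusted p = 0.0247). All 4 called mitosis genes had a lower level in keratinocytes than in the medium libraries, as did 354 of all 544 rises. The proliferation antigen gene Mki67 was not called, with 11.3 and 2.05 RPKM in the activated libraries and 5.44 and 0.330 RPKM in the co-cultured libraries (log2 fold change -1.06, adjusted p = 0.651), and its values overlapped between the groups. Pcna was lower in both co-cultured libraries and was called by DESeq2 (adjusted p = 0.0483), by limma (adjusted p = 0.0418 and 0.0442) and among the genes lower in keratinocytes (adjusted p = 0.0483). The DNA replication genes called lower numbered 0 without activated library 1, 5 without co-cultured library 1, 0 without co-cultured library 2, 1 without medium library 1, 1 without medium library 2, 11 by DESeq2 and 11 without a filter on low counts. Threshold losses occurred without activated library 1 for Ccne2 (adjusted p of 0.0787), without activated library 2 for Ccne2 (adjusted p of 0.0505), without co-cultured library 2 for Ccne2 and Ube2c (adjusted p of 0.0954 and 0.0557), in a fit of the genes with a lower level in keratinocytes alone for Ube2c (adjusted p of 0.0518), after subtraction by the differentiated markers for Ccne2 (adjusted p of 0.0903) and on uniquely mapped reads for Ccne2 (adjusted p of 0.137). Leaving out 1 library moved the fold change by over 1.5 times for Ccne2 (log2 -2.83 without co-cultured library 1), Ccnb2 (log2 4.46 without activated library 1) and Ube2c (log2 3.20 without activated library 1).

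Some interferon-inducible genes, a group that includes antigen processing for MHC class I, rose upon co-culture. Of 37 tested 5 rose and 32 did not pass, and 32 had a fitted fold change above 0 (median 0.98). Of all tested genes 4.59% rose. At an unadjusted p under 0.05, 19 were higher. All 5 called had a lower level in keratinocytes than in the medium libraries, as did 354 of all 544 rises. That class is no independent evidence, since the medium libraries set it. Irgm2, for an immunity-related GTPase, stood at 10.6 and 12.2 RPKM in the activated libraries and 52.8 and 51.6 RPKM in the co-cultured libraries (log2 fold change 2.38 ± 0.31 (SE), adjusted p = 0.00693). Tap1, for the peptide transporter that loads MHC class I, stood at 101 and 88.1 RPKM in the activated libraries and 323 and 327 RPKM in the co-cultured libraries (log2 fold change 1.98 ± 0.30 (SE), adjusted p = 0.00934), and Psmb9, for a subunit of the immunoproteasome, at 63.8 and 79.2 RPKM in the activated libraries and 206 and 216 RPKM in the co-cultured libraries (log2 fold change 1.75 ± 0.33 (SE), adjusted p = 0.017). The co-cultured libraries were above the activated ones in all 3 cases. The GTPase genes Gbp6 (11.8 and 8.37 RPKM against 41.8 and 20.3 RPKM upon co-culture, log2 fold change 1.79, adjusted p = 0.0356) and Igtp (168 and 114 RPKM against 345 and 237 RPKM upon co-culture, log2 fold change 1.23, adjusted p = 0.0424) rose too, yet 0.448% and 5.88% of their reads were uniquely mapped, and Gbp6 could not be fitted on those. The interferon-inducible genes called numbered 2 without activated library 1, 3 without co-cultured library 1, 3 without co-cultured library 2, 17 by DESeq2 and 17 without a filter on low counts. Calls did not hold without activated library 1 for Tap1, Psmb9, Gbp6 and Igtp (adjusted p of 0.0507 to 0.121), without activated library 2 for Gbp6 and Igtp (adjusted p of 0.116 and 0.125), without co-cultured library 1 for Gbp6 and Igtp (adjusted p of 0.109 and 0.153), without co-cultured library 2 for Psmb9 and Igtp (adjusted p of 0.0681 and 0.0981), without medium library 1 for Igtp (adjusted p of 0.0688), without medium library 2 for Igtp (adjusted p of 0.077), in a fit of these 4 libraries alone for Igtp (adjusted p of 0.0727), in a fit of the genes with a lower level in keratinocytes alone for Gbp6 and Igtp (adjusted p of 0.0767 and 0.116), with library sizes in place of TMM for Gbp6 and Igtp (adjusted p of 0.0675 and 0.0743), by limma at a pseudocount of 0.1 RPKM for Gbp6 and Igtp (adjusted p of 0.0731 and 0.0621), by limma at a pseudocount of 1 RPKM for Gbp6 and Igtp (adjusted p of 0.0718 and 0.0581) and on uniquely mapped reads for Igtp (adjusted p of 0.0671).

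Of 20 tested apoptosis regulators 3 rose, 1 fell and 16 did not pass (median 0.13). Of all tested genes 4.59% rose and 5.72% fell, so these few calls are no result about the group. Bmf, for a BH3-only killer protein, stood at 0.345 and 0.790 RPKM in the activated libraries and 6.88 and 4.62 RPKM in the co-cultured libraries (log2 fold change 3.50 ± 0.58 (SE), adjusted p = 0.0122), and Bcl2l11, for the BH3-only protein Bim that removes cytokine-deprived T cells, at 4.82 and 5.10 RPKM in the activated libraries and 12.6 and 23.8 RPKM in the co-cultured libraries (log2 fold change 2.10 ± 0.46 (SE), adjusted p = 0.0281). The death receptor gene Fas rose (6.67 and 9.44 RPKM against 21.4 and 17.8 RPKM upon co-culture, log2 fold change 1.46, adjusted p = 0.0473), and Bcl2l1, for the survival protein Bcl-xL, fell (31.4 and 25.1 RPKM against 8.80 and 7.81 RPKM upon co-culture, log2 fold change -1.57, adjusted p = 0.0193). The groups did not overlap for any of the 4 genes. The threshold was missed without activated library 1 for Bcl2l1, Bmf, Bcl2l11 and Fas (adjusted p of 0.0587 to 0.223), without activated library 2 for Bcl2l11 and Fas (adjusted p of 0.0783 and 0.0599), without co-cultured library 1 for Bcl2l1 and Fas (adjusted p of 0.0714 and 0.108), without co-cultured library 2 for Bcl2l1, Bcl2l11 and Fas (adjusted p of 0.102 to 0.135), without medium library 1 for Fas (adjusted p of 0.0697), without medium library 2 for Fas (adjusted p of 0.0768), in a fit of these 4 libraries alone for Fas (adjusted p of 0.0738), in a fit of the genes with a lower level in keratinocytes alone for Bcl2l11 and Fas (adjusted p of 0.051 and 0.0767) and with library sizes in place of TMM for Fas (adjusted p of 0.0677). The fold change moved by over 1.5 times with 1 library left out for Bmf (log2 4.28 without activated library 2) and Bcl2l11 (log2 1.43 without co-cultured library 2).

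Of the 13 mitochondrially encoded genes 4 rose and 9 did not pass, with all 13 fold changes above 0 (median 1.26). They took 2.71% and 5.01% of exon reads in the activated, 6.81% and 13.1% in the co-cultured libraries and 6.08% and 8.0% in keratinocyte medium. mt-Co1, for a subunit of cytochrome c oxidase, stood at 3583 and 5424 RPKM in the activated libraries and 12278 and 34450 RPKM in the co-cultured libraries (log2 fold change 2.61 ± 0.57 (SE), adjusted p = 0.0279), and mt-Nd5, for a subunit of complex I, at 332 and 334 RPKM in the activated libraries and 853 and 674 RPKM in the co-cultured libraries (log2 fold change 1.38 ± 0.32 (SE), adjusted p = 0.0336). Co-cultured library 2 was the highest for mt-Co1 but the lower of its group for mt-Nd5. A larger mitochondrial share can come with lower RNA quality, and its part in these results was not tested. The mitochondrial genes called numbered 0 without activated library 1, 2 without activated library 2, 0 without co-cultured library 2, 2 without medium library 2, 8 by DESeq2 and 9 without a filter on low counts. Significance was lost without activated library 1 for mt-Co1 and mt-Nd5 (adjusted p of 0.146 and 0.143), without activated library 2 for mt-Co1 and mt-Nd5 (adjusted p of 0.0508 and 0.0699), without co-cultured library 1 for mt-Nd5 (adjusted p of 0.083), without co-cultured library 2 for mt-Co1 and mt-Nd5 (adjusted p of 0.0714 and 0.0898), in a fit of the genes with a lower level in keratinocytes alone for mt-Nd5 (adjusted p of 0.075), with library sizes in place of TMM for mt-Nd5 (adjusted p of 0.0584) and by limma at a pseudocount of 0.1 RPKM for mt-Nd5 (adjusted p of 0.0506). When 1 library was omitted, the fold change moved by over 1.5 times for mt-Co1 (log2 3.21 without co-cultured library 1 and log2 1.53 without co-cultured library 2).

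Most of the 10 largest rises over all genes belonged to transcripts of the differentiated epidermis. Of 15 tested markers of differentiated keratinocytes 9 rose (median 9.93, or 7.13 when the 10 genes with no read in a group are set to their bound), as did 2 of 7 basal and 5 of 10 general keratinocyte markers. The medium libraries held a summed 1.17 and 2.46 RPKM of the 18 differentiated markers. Markers unread in activated T cells thus passed the count filter mainly through the co-cultured libraries. Their count and median describe members read upon co-culture and are no further support for a rise. Crct1 and Klk7, a cornified envelope gene cluster member and a protease of the outermost layer, had no read in the activated libraries. Upon co-culture Crct1 stood at 228 and 379.9 RPKM (at least 1157-fold higher) and Klk7 at 56.3 and 51.1 RPKM (at least 489-fold higher). Sprr1a, for a cornified envelope precursor, stood at 0.0738 and 0 RPKM in the activated libraries and 429 and 306 RPKM in the co-cultured libraries (adjusted p = 0.00103). It had 1 read over both activated libraries and 8751 upon co-culture, a 9476-fold higher share of exon reads (exact 95% interval 1700 to 374300, counting error only). Spink5, for a protease inhibitor of the epidermal barrier, (8.58 and 11.6 RPKM, at least 232-fold higher), Sprr1b (27.0 and 75.3 RPKM, at least 204-fold higher) and Krtdap, for a keratinocyte differentiation protein, (20.7 and 103 RPKM, at least 140.1-fold higher) were also unread in the activated libraries. The late cornified envelope genes Lce3c (55.5 and 95.0 RPKM, at least 205-fold higher) and Lce3f (46.9 and 82.0 RPKM, at least 189-fold higher) and the uncharacterised gene 2310046K23Rik (44.8 and 54.4 RPKM, at least 161-fold higher) completed the 10 largest rises over all genes, together with AC161165.4. The bounds take 3 reads per library as the floor. The adjusted p passed 0.05 without activated library 1 for Krtdap (adjusted p of 0.0587) and by DESeq2 for Krtdap, Lce3c and Lce3f (adjusted p of 0.055 to 0.0678). Leaving out 1 library moved the fold change by over 1.5 times for Krt14 (log2 5.40 without co-cultured library 1 and log2 7.08 without co-cultured library 2).

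Marker levels in the co-cultured T cells were set against those in keratinocytes. Taking the mean level in the co-cultured keratinocytes as 100%, the median over 9 basal markers was 0.606% and 0.122% in the co-cultured T-cell libraries, that over 12 general markers 1.11% and 0.330%, and that over 13 differentiated markers 53.9% and 48.1%. The single differentiated markers ran from 1.74% to 466% and from 0.950% to 834%. Against keratinocytes cultured alone, a reference added after seeing the data, the medians were 0.398% and 0.0745% for basal, 0.663% and 0.226% for general and 10.8% and 10.8% for differentiated markers. The basal keratin gene Krt14 stood at 61.6 and 16.8 RPKM in co-cultured T cells and 7926 and 11836 RPKM in co-cultured keratinocytes (log2 fold change 6.47 ± 0.84 (SE), adjusted p = 0.00693 against activated T cells), Krt17 at 98.3 and 64.2 RPKM against 6729 and 4171 RPKM and Krt16 at 49.9 and 33.7 RPKM against 1025 and 1800.5 RPKM. Klk7, by contrast, was higher in the co-cultured T cells (56.3 and 51.1 RPKM) than in the co-cultured keratinocytes (10.2 and 14 RPKM) and close to keratinocytes cultured alone (54.0 and 68.7 RPKM), and Krtdap stood at 20.7 and 103 RPKM in co-cultured T cells, 10.4 and 14.4 RPKM in co-cultured keratinocytes and 54.5 and 329 RPKM in keratinocytes alone. The T cells in keratinocyte medium had a median of 0% over the differentiated markers. S100a8 and S100a9, calprotectin genes of neutrophils that keratinocytes also express, rose with them, from 0.979 and 5.14 to 37.0 and 169.8 RPKM (log2 fold change 5.32, adjusted p = 0.0192) and from 1.60 and 6.65 to 28.2 and 60 RPKM (log2 fold change 3.62, adjusted p = 0.0289). Keratinocytes alone held 27.9 and 110.1 RPKM of S100a8 and 23.1 and 47.3 RPKM of S100a9, and of the other 4 neutrophil markers none was tested. Cd74, for the class II invariant chain, fell (119 and 177 RPKM against 49.0 and 34.2 RPKM upon co-culture, log2 fold change -1.66, adjusted p = 0.0229), the only one of 8 tested dendritic cell markers that passed. Which cells carried the epidermal transcripts was not tested. The call was lost without activated library 1 for S100a8 and S100a9 (adjusted p of 0.0908 and 0.103), without activated library 2 for Cd74 (adjusted p of 0.0705), without co-cultured library 2 for S100a8, S100a9 and Cd74 (adjusted p of 0.0634 to 0.134) and after subtraction by the differentiated markers for Cd74 (adjusted p of 0.0769). A single library moved the fold change by over 1.5 times for S100a8 (log2 4.55 without activated library 1, log2 7.01 without activated library 2, log2 6.07 without co-cultured library 1 and log2 3.67 without co-cultured library 2) and S100a9 (log2 2.92 without activated library 1, log2 5.06 without activated library 2 and log2 2.84 without co-cultured library 2).

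**Figure D3:**
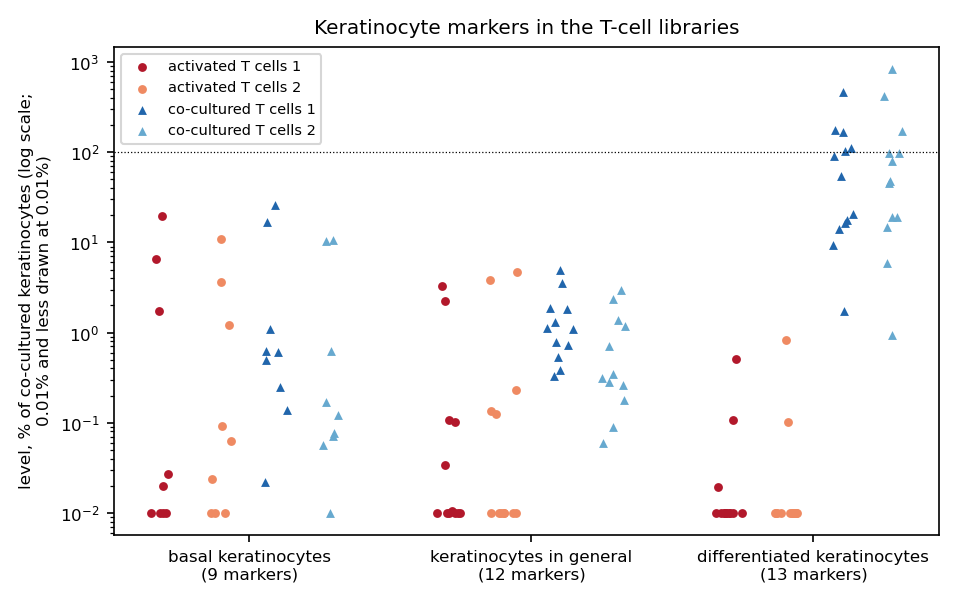
Level of keratinocyte markers in the activated (circles) and co-cultured (triangles) T-cell libraries as a percentage of the mean level in co-cultured keratinocytes (y axis, log scale; values of 0.01% or less drawn at 0.01%), by marker class (x axis), 1 symbol per marker and library. Medians upon co-culture were 0.606% and 0.122% for basal, 1.11% and 0.330% for general and 53.9% and 48.1% for differentiated markers; the dotted line is 100%.

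T cells kept in keratinocyte medium without keratinocytes were set beside the co-cultured ones. Both comparisons use the same activated libraries, so only their own values are given. In keratinocyte medium 275 genes rose (2.32%) and 501 fell (4.22%) against activated T cells. The medians upon co-culture and in medium were -2.20 and -2.15 for cytokines, -3.33 and -3.60 for chemokines, -1.51 and -1.61 for glycolysis, -2.79 and -2.46 for ribosome biogenesis, 1.44 and 1.52 for naive and memory surface genes and 0.98 and 1.01 for interferon-inducible genes. For Ifng, activated T cells held 613 and 589 RPKM, co-cultured T cells 3.26 and 6.20 RPKM and T cells in medium 5.95 and 7.20 RPKM, and for Hk2 the values were 39.0 and 30.9 RPKM, 0.847 and 0.367 RPKM and 0.640 and 0.621 RPKM in this order. In a direct test of co-culture over medium, the groups differed in 31 higher genes (0.261%) and 0 lower genes (0.0%) by edgeR; at an unadjusted p under 0.05, 320 genes were higher and 89 lower, and DESeq2 called 79 higher and 8 lower. Without medium library 1, 19 were higher and 0 lower, without medium library 2, 16 and 0, and without co-cultured library 1, 48 and 4. All 31 belonged to the 945 genes at 10 times or more the T-cell level in keratinocytes, but the medium libraries both set that split and are the reference of this comparison, so nothing is read from it. None of the 526 tested members of the 23 gene groups passed in that contrast (smallest adjusted p = 0.201), with 24 higher and 4 lower at an unadjusted p under 0.05 and 4 higher and 1 lower by DESeq2. A p beyond the threshold does not show that the groups were alike.

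**Figure D4:**
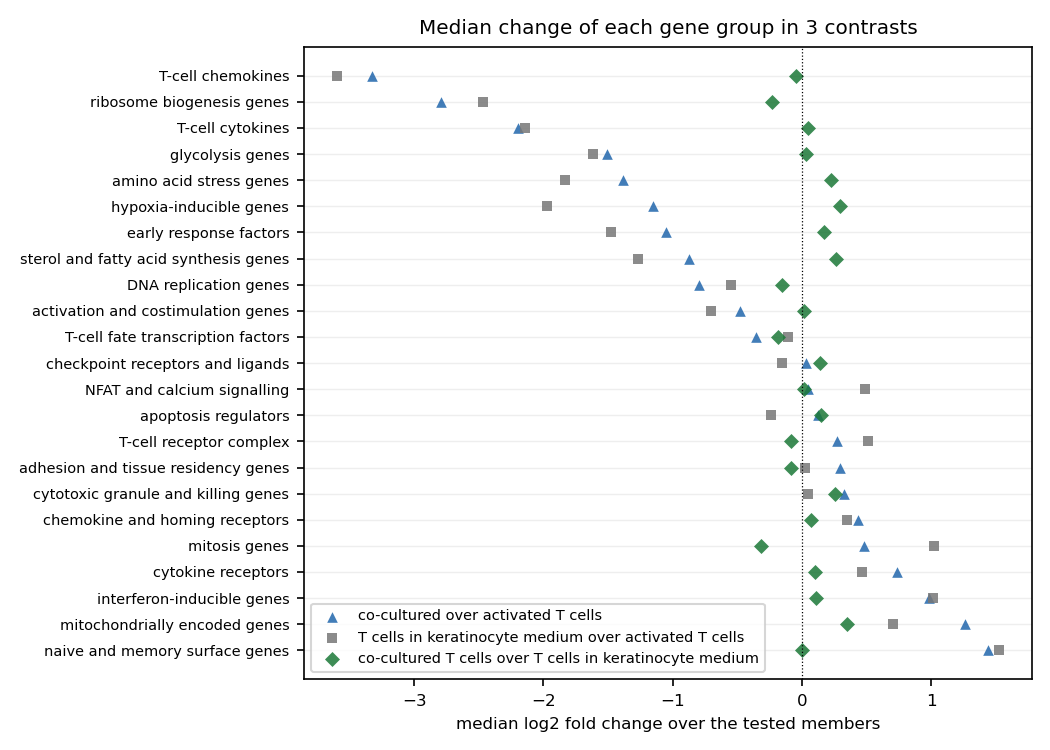
Median log2 fold change over the tested members of 23 gene groups (rows) for co-cultured over activated T cells (blue triangles), T cells in keratinocyte medium over activated T cells (grey squares) and co-cultured T cells over T cells in keratinocyte medium (green diamonds). The chemokine medians are -3.33 and -3.60 against activated T cells, and the green diamonds lie between -0.31 for mitosis genes and 0.35 for mitochondrially encoded genes; the blue and grey values share the activated libraries.

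Outside these groups, the largest rises in the class with a lower level in keratinocytes were those of CT010498.2, Gm14085, Ctla2b, Hacl1_1, Dntt, Slc6a19, AC160962.1, Haao and Slc16a5, beside Klrd1. Slc6a19, for a transporter of neutral amino acids, stood at 0.680 and 0.476 RPKM in the activated libraries and 23.6 and 23.3 RPKM in the co-cultured libraries (log2 fold change 5.53 ± 0.38 (SE), adjusted p = 0.00162), and Dntt, for the enzyme that adds bases at receptor gene joints in developing lymphocytes, at 0.196 and 0.620 RPKM in the activated libraries and 22.0 and 12.1 RPKM in the co-cultured libraries (log2 fold change 5.54 ± 0.66 (SE), adjusted p = 0.00548). Haao, for an enzyme of tryptophan breakdown, stood at 0.974 and 0.398 RPKM in the activated libraries and 21.3 and 18.7 RPKM in the co-cultured libraries (log2 fold change 5.04 ± 0.54 (SE), adjusted p = 0.00525), Gm14085 at 0.270 and 0.278 RPKM in the activated libraries and 31.3 and 33.9 RPKM in the co-cultured libraries (log2 fold change 7.08 ± 0.43 (SE), adjusted p = 0.00103) and Ctla2b, for a cysteine protease inhibitor, at 0.449 and 0.282 RPKM in the activated libraries and 15.0 and 35.7 RPKM in the co-cultured libraries (log2 fold change 6.33 ± 0.72 (SE), adjusted p = 0.00525). A call and no overlap between the groups were conditions for naming these 5 genes and are no further support. No read of CT010498.2, Hacl1_1 or AC161165.4 was uniquely mapped, and 0.961% of those of AC160962.1 and 14.3% of those of Ctla2b were, so their reads may belong to near-identical genes. On alternative counts, calls were lost on uniquely mapped reads for AC160962.1 (adjusted p of 0.0783). The fold change moved by over 1.5 times with 1 library left out for Ctla2b (log2 5.43 without co-cultured library 2), Hacl1_1 (log2 4.84 without activated library 2), Dntt (log2 4.90 without activated library 1 and log2 6.63 without activated library 2), AC160962.1 (log2 4.56 without co-cultured library 2), Haao (log2 5.78 without activated library 1) and Slc16a5 (log2 4.71 without activated library 2).

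The 10 largest falls were Gemin4, Il3, Lilrb4, Nefh, Ak4, Ifng, Rpp25, Hpdl, Hk2 and Arhgdig. Rpp25, for a subunit of RNase P, stood at 6.94 and 6.78 RPKM in the activated libraries and 0.185 and 0 RPKM in the co-cultured libraries (log2 fold change -5.96 ± 1.24 (SE), adjusted p = 0.0292), and Hpdl, for a mitochondrial dioxygenase, at 9.60 and 9.89 RPKM in the activated libraries and 0 and 0.274 RPKM in the co-cultured libraries (log2 fold change -5.90 ± 1.20 (SE), adjusted p = 0.0223). Nefh, for a neurofilament chain, stood at 45.1 and 10.9 RPKM in the activated libraries and 0.362 and 0 RPKM in the co-cultured libraries (log2 fold change -7.07 ± 1.40 (SE), adjusted p = 0.0205), and Gemin4, for a component of the spliceosome assembly complex, was at least 159-fold lower with no read upon co-culture, on 2.30% uniquely mapped reads. Activated library 1 was far above library 2 for Nefh and Gemin4, whereas the activated libraries were close for Rpp25 and Hpdl. Calls were lost without activated library 1 for Gemin4, Nefh, Rpp25, Hpdl and Arhgdig (adjusted p of 0.0883 to 0.169), without activated library 2 for Rpp25 and Hpdl (adjusted p of 0.0771 and 0.0556), without co-cultured library 2 for Gemin4 and Rpp25 (adjusted p of 0.0593 and 0.0577), after subtraction by the differentiated markers for Gemin4 and Nefh (adjusted p of 0.105 and 0.0736) and with library sizes in place of TMM for Gemin4 (adjusted p of 0.0589). When 1 library was omitted, the fold change moved by over 1.5 times for Nefh (log2 -5.79 without activated library 1, log2 -7.74 without activated library 2 and log2 -6.14 without co-cultured library 2), Rpp25 (log2 -5.08 without co-cultured library 2), Hpdl (log2 -4.84 without co-cultured library 1) and Arhgdig (log2 -4.68 without co-cultured library 2).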

How the data were processed

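RNA of 10 libraries was poly(A)-selected and sequenced with single-end reads. The authors mapped the reads to GRCm38 with the CLC Genomics Workbench at default settings and deposited, for each library and each of 25814 genes, exon read counts, uniquely mapped reads and RPKM values, the latter normalized by the authors to gene length and mapped reads. The libraries held 12864931 to 18019609 exon reads, and the floor of a gene without reads was taken as 3 reads per library.

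The deposited counts of the 6 T-cell libraries were tested in edgeR 4.0.16 (R 4.3.3) by the quasi-likelihood F-test with a term per group, TMM scaling, filterByExpr and Benjamini-Hochberg adjustment over 11863 genes at a threshold of 0.05. Standard errors were derived from the F statistic. With 2 libraries against 2, an exact two-sided permutation test cannot go below p = 0.333, so single values got no such test. Other settings tried were library sizes in place of TMM, limma 3.58.1 on the log2 scale of RPKM at pseudocounts of 1 and 0.1, DESeq2 1.42.0, other filters, uniquely mapped reads, the 4 libraries alone, the genes lower in keratinocytes alone, subtraction of keratinocyte RNA scaled by all or by the differentiated markers, and each library left out in turn. The share subtracted from co-cultured libraries 1 and 2 was 1.85% and 1.28% by all markers and 53.9% and 48.1% by the differentiated ones.

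Named were the 10 largest rises, over all genes and over the genes lower in keratinocytes, and the 10 largest falls, each called, not overlapping and with a mean of 5 RPKM or more in either group, and up to 8 members a gene list, called ones and defining ones. The comparison and the lists were chosen with earlier results of these data known. Promoters came from RefSeq (GRCm38.p6). A result that needs an item withheld here is not reported.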

Additional observations from a re-analysis of the deposited data

How the results depend on the processing

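For co-culture against activation, 544 genes were higher and 678 lower. DESeq2 called 1135 and 1234, the test without a filter on low counts 1132 and 1293, and the genes lower in keratinocytes alone, fewer genes tested, 215 and 234. Limma at a pseudocount of 1 RPKM called 1108 lower, and subtraction by the differentiated markers 2048 lower. With 1 library left out, 134 to 506 were higher and 132 to 625 lower, the fewest without activated library 1; a lone library is then assumed to vary like the other groups. The 354 rises among genes lower in keratinocytes were 751 by DESeq2, 742 without a filter, 215 when tested alone, 564 after subtraction by the differentiated markers and 77 to 346 with 1 library left out.

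For co-culture against medium, the 31 higher and 0 lower genes were 79 and 8 by DESeq2, 123 and 18 without a filter, 105 and 2 by limma at 0.1 RPKM, 98 and 1 at 1 RPKM, and 20 and 2 after subtraction by all markers. With at least 10 reads in every library, and among the genes lower in keratinocytes alone, 0 were higher. Subtraction by the differentiated markers gave 1601 lower, and leaving out 1 library gave 16 to 48 higher and 0 to 4 lower.

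Of the 105 named genes called, 60 kept their call without activated library 1, 81 without co-cultured library 2 and 88 without activated library 2. Subtraction by the differentiated markers turned the log2 fold change of Klf3 to -1.76, Lag3 to 0.56, Npm1 to 0.23 and Krt14 to -6.36, and subtraction by all markers that of Krt14 to -6.58. With 1 library left out, Pdcd1 ranged from -0.033 to 1.05 (negative without co-cultured library 2), Lag3 from -0.32 to 0.049 (positive without co-cultured library 1) and Mki67 from -4.01 to 0.56 (positive without activated library 1). Apart from what these settings remove or subtract, the cause was not tested. No paired analysis was possible because the co-cultured libraries carry no replicate number in the labels.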
